A study of Homo sapiens with 6 samples.

Results

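The 45 genes described here are protein-coding genes of the distal long arm of human chromosome 13, from TBC1D4 to GRTP1 in RefSeq order. They were chosen by position and measured level: a gene had to be above 0 in all 6 libraries with a mean log2 RPKM of 2 or more, and EDNRB, SPRY2 and CUL4A were left out by name. The ends of the stretch were placed with the difference between the groups known, so the group differences of these genes were selected on and are given as descriptions, with no test. RefSeq lists 102 protein-coding genes in the stretch, of which 93 had a row in the deposited data, 55 were above 0 in every library and 46 also reached the level. All 6 libraries came from KYSE150, an established oesophageal squamous cell carcinoma line. NCCRP1 clones 1, 6 and 17 had been stably transfected with a vector for human NCCRP1, a gene of the F-box family. Mock clones 1, 4 and 5 carried the pIRES2-EGFP vector. Each library is 1 clone of 1 line, total RNA was depleted of ribosomal RNA before Ion Torrent sequencing, and the comparison asks which transcripts differ when NCCRP1 is expressed.

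Side by side on a chromosome, genes are mostly unrelated in function, and each is usually transcribed from its own promoter, although some neighbours that point away from each other share one. Neighbours also share the copies of the chromosome segment that a cell carries; copy number was not analysed here. Distal 13q holds genes for regulators of small GTPases, ubiquitin ligases, lysosomal membrane proteins and the paired type IV collagen genes COL4A1 and COL4A2, whose products form the network of basement membranes. KYSE150 is a line of squamous epithelial origin, in which basal keratins are typically abundant.

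NCCRP1 itself had log2 RPKM values of 6.19, 8.07 and 6.71 in NCCRP1 clones 1, 6 and 17. It was listed at 0 in all 3 mock clones. The libraries held 12477 to 12821 genes above 0 at an estimated 12290000 to 18070000 reads. Of 8 squamous markers 7 were above 0 in every library, with KRT5 between 9.54 and 10.86 log2 RPKM, and SOX2 was listed at 0 in NCCRP1 clone 6. The basal keratin KRT14 was low, at 2.23, 1.89 and 1.11 in the NCCRP1 clones and 4.22, 3.71 and 2.0 in the mock clones, while KRT6A lay between 3.52 and 4.84 and KRT17 between 6.24 and 8.59. All 4 blood markers were listed at 0 throughout, as were 5 of 6 fibroblast markers and 3 of 4 endothelial markers. COL1A1 lay between 1.32 and 2.57, and CDH5 was above 0 only in NCCRP1 clone 6, at 0.66. NCCRP1 clone 1 and mock clones 1 and 4 were read in sequencing run 15, and NCCRP1 clones 6 and 17 and mock clone 5 in run 14.

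COL4A1 and COL4A2, the only 2 of the 45 genes with a higher mean in the NCCRP1 clones, start back to back, and their promoters are shown for that reason. The sequences are the RefSeq promoter windows of GRCh38.p14, each from 250 bases before to 50 bases after the start and read 5′ to 3′ on the gene's own strand. COL4A1 lies on the minus strand (chr13:110307108-110307407) and COL4A2 on the plus strand (chr13:110307034-110307333). Capitals mark the 226 bases that both windows hold, as reverse complements of each other; the starts are 127 bases apart.
COL4A1: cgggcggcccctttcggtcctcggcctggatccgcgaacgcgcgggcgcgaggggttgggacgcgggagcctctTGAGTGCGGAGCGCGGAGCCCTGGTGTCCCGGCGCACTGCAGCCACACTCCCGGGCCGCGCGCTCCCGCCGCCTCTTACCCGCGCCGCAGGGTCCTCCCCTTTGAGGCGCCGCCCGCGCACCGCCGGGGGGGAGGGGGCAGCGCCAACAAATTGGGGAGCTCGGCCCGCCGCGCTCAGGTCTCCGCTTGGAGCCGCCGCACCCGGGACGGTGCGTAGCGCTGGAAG
COL4A2: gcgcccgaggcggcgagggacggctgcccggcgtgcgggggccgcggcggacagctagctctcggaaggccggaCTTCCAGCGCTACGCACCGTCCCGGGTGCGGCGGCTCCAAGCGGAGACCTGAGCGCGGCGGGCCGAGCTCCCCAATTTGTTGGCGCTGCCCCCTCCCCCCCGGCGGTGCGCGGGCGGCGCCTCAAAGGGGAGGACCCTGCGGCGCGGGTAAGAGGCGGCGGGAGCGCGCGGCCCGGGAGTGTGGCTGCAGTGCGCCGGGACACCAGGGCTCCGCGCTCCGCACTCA

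A second pair, COMMD6 on the minus strand (chr13:75549390-75549689) and UCHL3 on the plus strand (chr13:75549252-75549551), is arranged in the same way with starts 63 bases apart, and is shown because its genes had lower means in the NCCRP1 clones. Capitals mark the 162 shared bases.
COMMD6: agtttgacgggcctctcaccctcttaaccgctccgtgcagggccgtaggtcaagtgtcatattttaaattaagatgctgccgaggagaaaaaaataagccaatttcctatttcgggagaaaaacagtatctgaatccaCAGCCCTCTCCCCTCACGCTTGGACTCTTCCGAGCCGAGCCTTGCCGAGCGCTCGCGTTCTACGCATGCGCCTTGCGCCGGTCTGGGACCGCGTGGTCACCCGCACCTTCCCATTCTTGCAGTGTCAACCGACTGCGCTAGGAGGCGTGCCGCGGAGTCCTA
UCHL3: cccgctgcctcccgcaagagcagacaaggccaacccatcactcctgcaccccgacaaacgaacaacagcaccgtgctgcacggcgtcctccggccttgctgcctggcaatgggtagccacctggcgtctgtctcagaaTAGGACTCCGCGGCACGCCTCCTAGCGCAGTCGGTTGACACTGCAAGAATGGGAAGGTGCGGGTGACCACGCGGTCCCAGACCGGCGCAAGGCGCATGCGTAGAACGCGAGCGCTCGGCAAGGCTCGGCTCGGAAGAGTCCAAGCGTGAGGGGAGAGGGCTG

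Of the 45 genes, 39 had a RefSeq promoter in the table used, and these were the only 2 pairs among them whose windows, taken at the first start listed for each gene, overlapped. The shared COL4A1 and COL4A2 bases are 76.5% G or C and hold 1 CCAAT and 1 GGGCGG, counted on both strands. The shared COMMD6 and UCHL3 bases are 66.7% G or C and hold neither of these, nor the TATAAA or the CACGTG motif. Over the 39 promoters, CCAAT was present in 35.9%, GGGCGG in 53.8%, TATAAA in 7.69%, and CACGTG in 7.69%. Over all 27305 promoters of the same length the shares were 35.7%, 44.6%, 12% and 7.43%.

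Most genes of the stretch stood lower in the NCCRP1 clones. The mean was lower in 43 of the 45, from LAMP1, the most abundant, to low genes such as EFNB2, and higher in COL4A1 and COL4A2. The median log2 difference, NCCRP1 minus mock, was -0.37 (quartiles -0.53 and -0.28), which is 0.776 times the mock level, against -0.01 (quartiles -0.14 and 0.12) over the 8860 protein-coding genes at the same level anywhere in the genome. In 30 of the 45 genes every NCCRP1 clone lay under every mock clone; this was so for 6.69% of the 8860 genes and for 7.05% of all 12737 tested genes. In 2 genes every NCCRP1 clone lay above every mock clone, as in 6.21% of the 8860, and in the other 13 the groups overlapped. Across the 45 the differences ran from -0.97 to 0.58, and 33 of them lay between -0.6 and -0.2. In these libraries, fewer cells that express a gene and less RNA per cell cannot be told apart.

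No single gene of the 45 passed limma's test over the whole table (lowest adjusted p = 0.109, for GRTP1), in which 0.0314% of the tested genes were called lower. At an unadjusted limma p under 0.05 there were 22 lower and 2 higher genes of the 45, with 7.33% of all tested genes past that value in either direction. The selection used this contrast, so nothing is read from these counts.

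**Figure D1:**
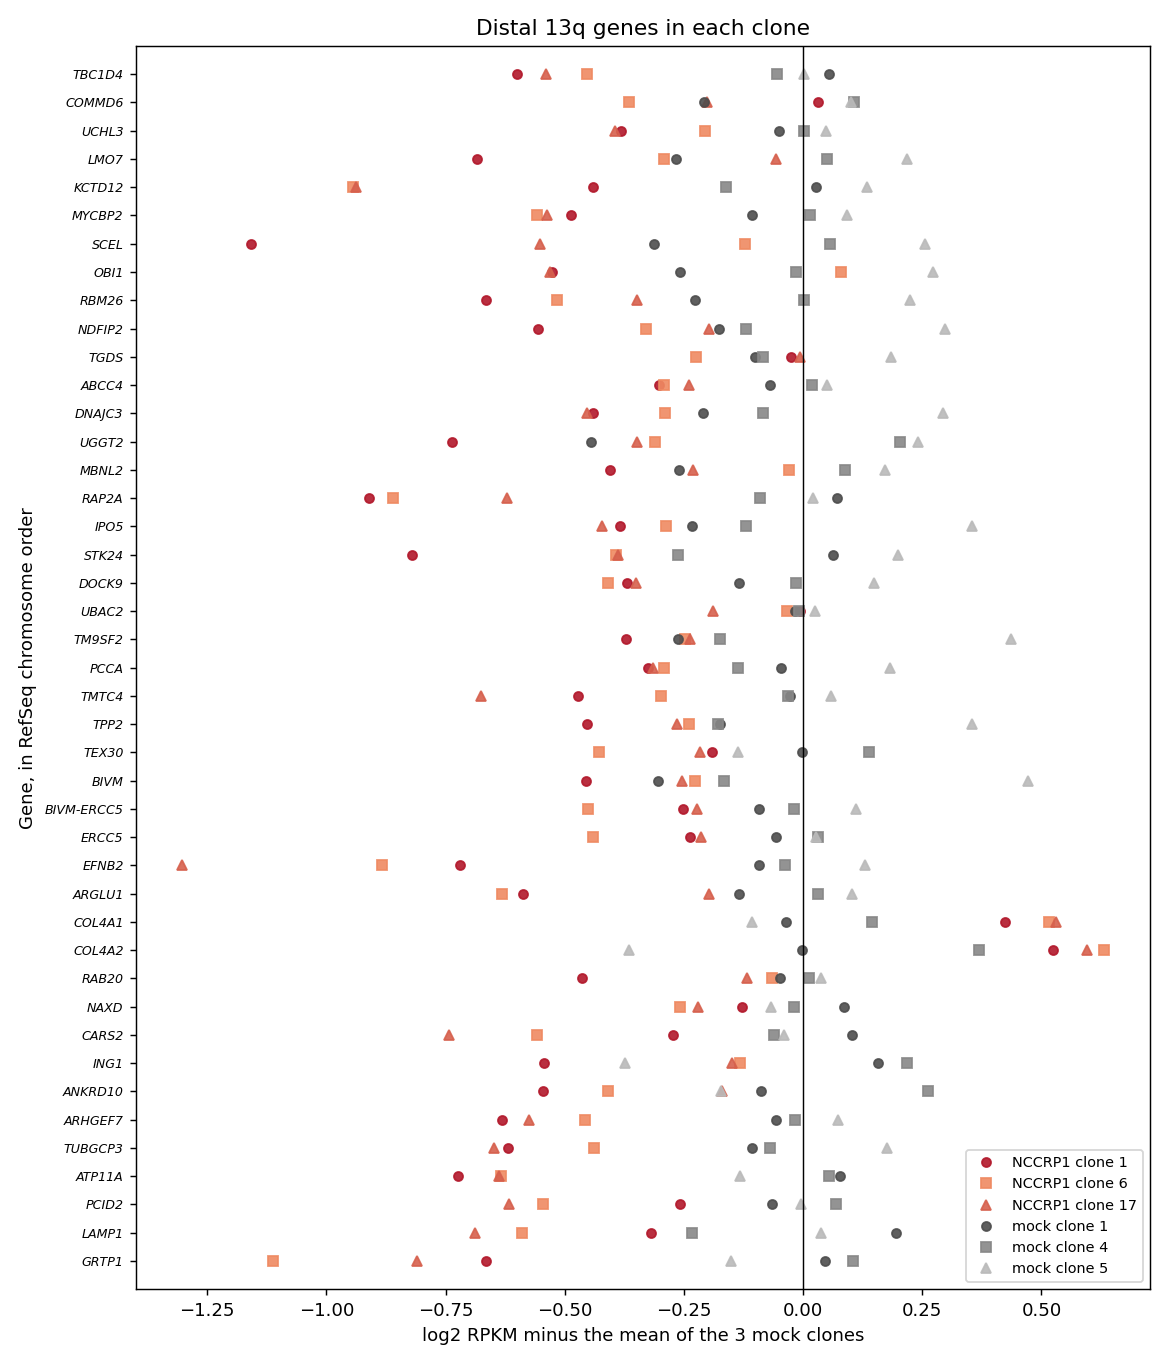
Values of 43 of the 45 genes in each clone, in RefSeq order from TBC1D4 (top) to GRTP1 (bottom). The horizontal axis is log2 RPKM minus the mean of the 3 mock clones; red points are NCCRP1 clones and grey points mock clones. In 29 of the genes drawn all red points lie left of all grey points, and only COL4A1 and COL4A2 have all red points on the right.

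Small GTPases, their regulators and the kinase STK24 were lower throughout: 7 of the 9 genes listed for this role were members, all 7 with a lower mean and without overlap. Of the 45 genes as a whole, 43 had a lower mean and 30 (66.7%) were lower without overlap, against 6.69% of the 8860 genes. The counts for this and the following role lists are therefore not read as results about the roles. GRTP1, which encodes a TBC-domain protein of the Rab GTPase-activating kind, had log2 RPKM values of 3.59, 3.14 and 3.44 in NCCRP1 clones 1, 6 and 17, and of 4.30, 4.36 and 4.10 in mock clones 1, 4 and 5. The highest NCCRP1 clone was thus under the lowest mock clone, with a log2 difference of -0.86 or 0.550 times the mock level. RAP2A, a Ras-related GTPase gene, was at 2.09, 2.14 and 2.38 in the NCCRP1 clones and 3.07, 2.91 and 3.02 in the mock clones. Both groups were tight for RAP2A, with SDs of 0.15 in NCCRP1 clones and 0.08 in mock clones, around a difference of -0.80.

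TBC1D4, an insulin-regulated Rab GTPase-activating protein gene that opens the stretch, stood at 3.39, 3.54 and 3.46 in the NCCRP1 clones and at 4.05, 3.94 and 4.00 in the mock clones. Its difference of -0.53 was several times the larger SD of 0.07. ARHGEF7, an exchange factor for RAC1 and CDC42, averaged 3.31 ± 0.09 in NCCRP1 clones and 3.86 ± 0.07 in mock clones (SD, n = 3 each). STK24, a kinase of the STE20 family, averaged 4.20 ± 0.25 in NCCRP1 clones and 4.74 ± 0.24 in mock clones (SD, n = 3 each), with NCCRP1 clone 1 the lowest at 3.91. DOCK9, an exchange factor for CDC42, and RAB20, a Rab GTPase, had smaller differences of -0.38 and -0.22. FARP1 and MCF2L were listed at 0 in every library, and a listed 0 can also stand for a gene without an estimate.

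Among genes of ubiquitin and protein turnover, all 10 members had a lower mean and 6 had groups that did not overlap (median difference -0.34). The list is broad, and KCTD12 and COMMD6 are in it for their protein families. KCTD12, which encodes an auxiliary subunit of GABA-B receptors, was at 3.97, 3.47 and 3.48 in NCCRP1 clones 1, 6 and 17 and at 4.44, 4.25 and 4.55 in mock clones 1, 4 and 5. NCCRP1 clones 6 and 17 were the lower ones here, and the difference of -0.77 became -0.37 within run 15 and -1.07 within run 14. MYCBP2, a large ubiquitin ligase gene, was at 2.65, 2.58 and 2.60 in the NCCRP1 clones and at 3.03, 3.15 and 3.23 in the mock clones. That is a difference of -0.53 with an SD of 0.04 among the NCCRP1 clones. NDFIP2, an adaptor of NEDD4-family ligases, had a difference of -0.36 and also did not overlap; without mock clone 5 the difference was -0.21.

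UCHL3, a ubiquitin hydrolase gene, was at 4.05, 4.23 and 4.04 in NCCRP1 clones and 4.38, 4.44 and 4.48 in mock clones. Its neighbour across the shared promoter, COMMD6, a COMM-domain gene, was at 3.53, 3.13 and 3.30 in NCCRP1 clones and at 3.29, 3.60 and 3.60 in mock clones. So UCHL3 separated the groups and COMMD6 did not, with differences of -0.33 and -0.18. UBAC2, an endoplasmic reticulum membrane protein gene of the same list, was nearly level at 5.00, 4.97 and 4.82 in NCCRP1 clones and 4.99, 5.00 and 5.03 in mock clones. Its difference of -0.08 was within the SD of 0.10 among NCCRP1 clones. CUL4A, the scaffold of a cullin-RING ligase and left out by name, averaged 4.42 ± 0.09 in NCCRP1 clones and 4.71 ± 0.19 in mock clones (SD, n = 3 each).

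Matrix and cell-surface genes held both ends of the range. EFNB2, the ephrin-B2 ligand of EPHB receptors, was at 1.98, 1.82 and 1.40 in NCCRP1 clones 1, 6 and 17, and at 2.61, 2.67 and 2.83 in mock clones 1, 4 and 5. With a difference of -0.97 it stood at 0.511 times the mock level, the lowest ratio of the 45. Its lowest estimated read count was 192, in NCCRP1 clone 17. COL4A1 was at 3.64, 3.74 and 3.75 in the NCCRP1 clones and 3.18, 3.36 and 3.11 in the mock clones. COL4A2 was at 5.10, 5.20 and 5.17 in the NCCRP1 clones and at 4.57, 4.94 and 4.21 in the mock clones. For both collagen genes every NCCRP1 clone was above every mock clone and the NCCRP1 clones lay close together (SD 0.06 and 0.05), with differences of 0.49 and 0.58. The mock clones were less alike for COL4A2 (SD 0.37), and its difference was 0.34 within run 15 and 0.98 within run 14. SCEL, which encodes sciellin, a precursor of the cornified envelope, was at 1.62, 2.66 and 2.23 in NCCRP1 clones and 2.47, 2.83 and 3.03 in mock clones. Its groups overlapped through NCCRP1 clone 6, although the difference was -0.61. Without NCCRP1 clone 1 it was -0.34, and within run 15, which holds that clone, it was -1.03. GPC5, GPC6, ITGBL1, CLDN10 and EDNRB were listed at 0 in every library.

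**Figure D2:**
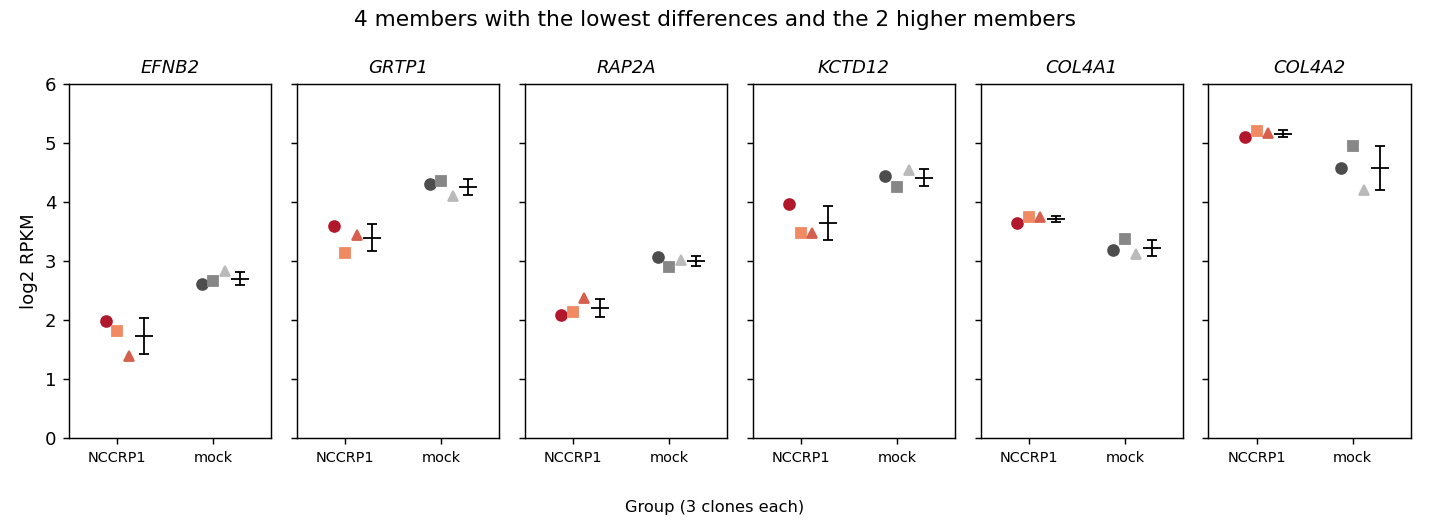
Log2 RPKM of the 4 genes with the most negative differences (EFNB2, GRTP1, RAP2A, KCTD12) and of the 2 higher genes (COL4A1, COL4A2), with NCCRP1 clones on the left and mock clones on the right of each panel. Circles, squares and triangles are NCCRP1 clones 1, 6 and 17 and mock clones 1, 4 and 5 in that order; the bar is the mean ± SD of 3 clones, and no panel has overlapping groups.

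Lysosomal, endosomal and transport genes were lower in mean in all 5 members, 3 of them without overlap. LAMP1, a major lysosomal membrane glycoprotein gene, was at 6.83, 6.56 and 6.46 in NCCRP1 clones and 7.35, 6.92 and 7.19 in mock clones. It carried the most reads, with at least 6746 estimated in every library, and had a difference of -0.53, which was -0.30 within run 15. ATP11A, a phospholipid flippase gene, was at 3.44, 3.53 and 3.53 in NCCRP1 clones and 4.24, 4.22 and 4.03 in mock clones, a difference of -0.66. ABCC4, an organic anion exporter gene, had a difference of -0.28 without overlap. TM9SF2, a transmembrane protein gene of endosomes and Golgi, had -0.29 with overlap, and its value without mock clone 5 was -0.07.

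In the endoplasmic reticulum group all 4 members had a lower mean. TMTC4, an O-mannosyltransferase gene, averaged 3.08 ± 0.19 in NCCRP1 clones and 3.56 ± 0.05 in mock clones (SD, n = 3 each), without overlap. DNAJC3, a co-chaperone of the reticulum, had a difference of -0.40 without overlap, which was -0.25 without mock clone 5, and -0.29 within run 15 against -0.67 within run 14. UGGT2, a relative of the glycoprotein folding sensor, had -0.46 with overlap through mock clone 1 at 2.42. TGDS, a dehydratase-family gene, was within its spread, at 2.34 ± 0.12 in NCCRP1 clones and 2.43 ± 0.16 in mock clones.

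Of 6 members with roles in RNA processing, nuclear import and chromatin, all had a lower mean and 4 did not overlap (median difference -0.42). RBM26, an RNA-binding protein gene, was at 2.58, 2.73 and 2.90 in NCCRP1 clones and 3.02, 3.25 and 3.48 in mock clones. PCID2, a component of mRNA export, averaged 4.49 ± 0.19 in NCCRP1 clones and 4.97 ± 0.07 in mock clones (SD, n = 3 each), with a difference of -0.26 within run 15. ARGLU1, a splicing and transcription co-factor gene, averaged 5.72 ± 0.24 in NCCRP1 clones and 6.19 ± 0.12 in mock clones (SD, n = 3 each). IPO5, an importin gene, had a difference of -0.37 that was -0.21 within run 15 and -0.71 within run 14, mock clone 5 being the highest library at 5.34; without mock clone 5 it was -0.19. The overlapping genes were MBNL2, a splicing regulator gene, and ING1, a chromatin reader gene. BIVM and TEX30, which have no such known role and were taken out of this list after their values were seen, had differences of -0.31 with overlap and -0.28 without. With both kept, as planned, all 8 members had a lower mean and 5 did not overlap (median difference -0.34).

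Of the other roles, ERCC5, the endonuclease of nucleotide excision repair, averaged 3.56 ± 0.13 in NCCRP1 clones and 3.86 ± 0.05 in mock clones. BIVM-ERCC5 is the read-through of BIVM and ERCC5 and shares their exons, so these 3 rows are not independent and their values are uncertain. The mitochondrial genes PCCA (propionyl-CoA carboxylase) and CARS2 (cysteinyl-tRNA synthetase) and the NAD(P)HX repair gene NAXD had differences of -0.31, -0.52 and -0.20, none with overlap. For CARS2 the difference within run 15 was -0.29, and for PCCA that within run 14 was -0.48. TUBGCP3, of the gamma-tubulin ring complex, was at 3.58, 3.76 and 3.55 in NCCRP1 clones and 4.10, 4.13 and 4.38 in mock clones. ANKRD10, an ankyrin repeat gene, had a difference of -0.37 with overlap, and -0.63 within run 15 against -0.12 within run 14; without mock clone 4 it was -0.24.

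Clone by clone, each NCCRP1 clone carried the lower values. Relative to the mean of the mock clones, the 45 genes had median deviations of -0.44, -0.33 and -0.35 in NCCRP1 clones 1, 6 and 17. Of the 45 genes 42, 41 and 42 were below that mean in these clones, against 4668, 4284 and 4416 of the 8860. In 40 of the 45 genes all 3 NCCRP1 clones were below the mean of the mock clones. Each mock clone, set against the mean of the other 2, stood at -0.13, -0.02 and 0.15 in clones 1, 4 and 5. Of the 45 genes 35, 24 and 10 were below the mean of the other 2 in these clones. The counts over the 8860 genes were 4659, 4660 and 4222. Mock clone 5 was the highest library in 29 of the 45 genes. Within run 15 the median difference was -0.32 with 40 genes lower, and within run 14 it was -0.53 with 41 lower. In both runs 38 were lower. Over the 8860 genes the medians within runs 15 and 14 were -0.006 and -0.025. Genes lower in all 3 NCCRP1 clones or within a run were not counted over the 8860. The 45 genes were selected on this contrast, so nothing is read from these counts.

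GC content moved with these libraries. The longest transcripts of 44 of the genes had a median GC content of 43.3%, against 50.3% for the 8860 genes. At a GC content of 38.8%, near that of the low-GC members, the genome-wide trend stood at -0.08, 0.03 and 0.04 in NCCRP1 clones 1, 6 and 17, and at -0.19, -0.07 and 0.26 in mock clones 1, 4 and 5. With that trend removed from each library, the NCCRP1 clones had medians of -0.37, -0.37 and -0.36 and the mock clones -0.01, 0.01 and -0.03. The median difference was then -0.36, with 43 genes lower and 32 without overlap, and the mock clones' medians lay closer together. At that GC content the trends largely cancelled within each group, so their removal could move the difference between the groups only a little. The cause of the difference was not tested. Over 44 genes the difference had a Pearson correlation of 0.18 and a Spearman correlation of -0.05 with GC content, and over 45 genes a Pearson correlation of 0.11 and a Spearman correlation of 0.03 with the mean level; the genes share the 6 libraries and no p is given.

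**Figure D3:**
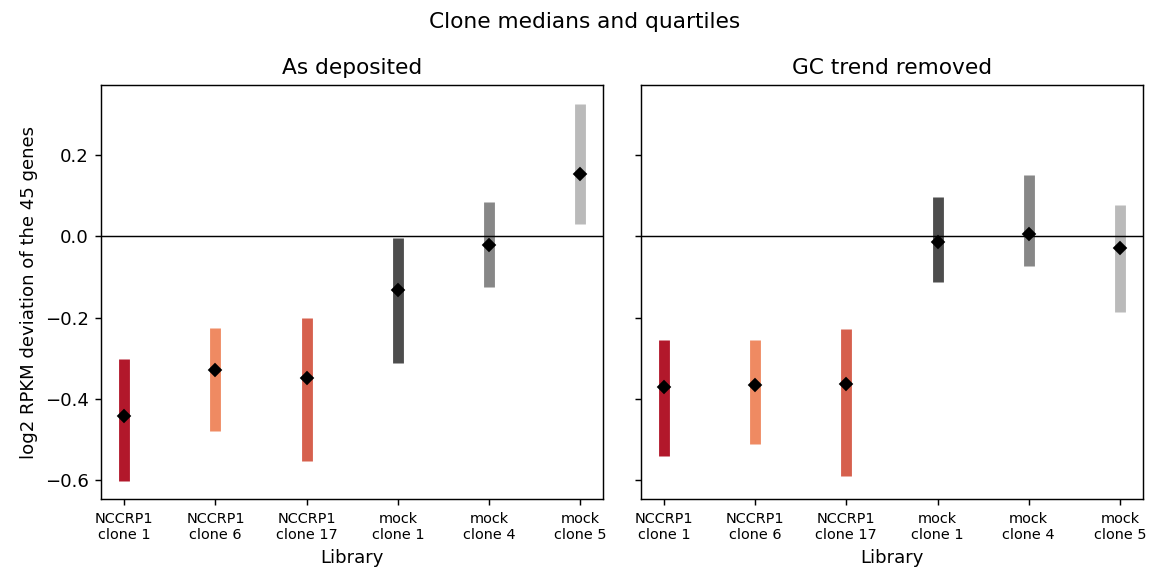
Median (diamond) and quartiles (bar) of the 45 genes' log2 RPKM deviations in each library, as deposited and with the GC trend removed. NCCRP1 clones are set against the mean of the 3 mock clones, and each mock clone against the mean of the other 2; without the GC trend the NCCRP1 clones lie at -0.37, -0.37 and -0.36 and the mock clones near 0.

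Along the chromosome the lower values spanned the whole stretch. In 4 consecutive parts the medians were -0.38 (12 genes from TBC1D4 to NDFIP2), -0.37 (11 genes from TGDS to TM9SF2), -0.31 (11 genes from PCCA to COL4A2) and -0.52 (11 genes from RAB20 to GRTP1). The groups did not overlap, with NCCRP1 lower, in 7, 6, 8 and 9 genes of these parts. That is 58.3%, 54.5%, 72.7% and 81.8% of their genes, against 6.69% of the 8860 genes. The part of chromosome 13 before TBC1D4 held 76 expressed genes with a median of 0.01, with 39 higher and 37 lower in mean. The groups did not overlap in 9 higher genes (11.8% of the 76, against 6.21% of the 8860 genes) and in 3 lower ones (3.95%, against 6.69%). The 4 expressed genes next to TBC1D4 all had lower means, but only for KLF5 did every NCCRP1 clone lie under every mock clone. The differences were -0.28 for MZT1, -0.23 for DIS3, -0.23 for PIBF1 and -0.67 for KLF5, a Krüppel-like transcription factor gene. MZT1 and DIS3 were picked after their values were seen. For MZT1, DIS3 and PIBF1 the groups overlapped, and mock clone 5 was the highest library in each. Mock clone 5 stood at 3.76 for MZT1 and 2.82 for DIS3. Mock clone 1 was the lowest library for both, at 2.62 and 2.17. KLF5 was at 3.28, 3.43 and 3.56 in NCCRP1 clones and 3.99, 3.94 and 4.34 in mock clones.

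The lower values did not end at GRTP1. Of the 9 expressed protein-coding genes after it, 8 had a lower mean and none of these 8 overlapped, with a median of -0.48 over the 9. Over the 8860 genes 52.2% had a lower mean and 6.69% were lower without overlap. ADPRHL1 and DCUN1D2, which follow GRTP1 directly, had differences of -0.41 and -0.48. GAS6, the gene of a ligand of AXL-family receptors, was the exception at 0.02. The differences of the 45 genes had an SD of 0.28 and an interquartile range of 0.250, against 0.24 and 0.253 over the 8860 genes. Without COL4A1 and COL4A2, left out after their values were seen, the SD of the members was 0.20.

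**Figure D4:**
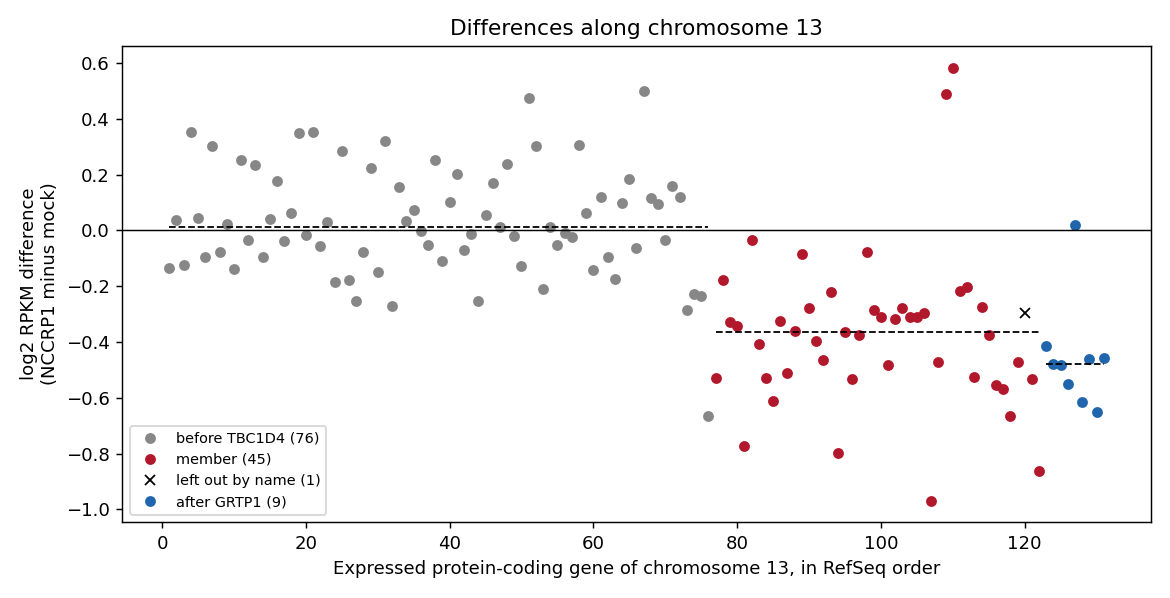
Log2 RPKM difference, NCCRP1 minus mock, of the 131 expressed protein-coding genes of chromosome 13 in RefSeq order. Dashed lines are the medians of the genes before TBC1D4 (0.01), of the 45 genes from TBC1D4 to GRTP1 (-0.37) and of the genes after GRTP1 (-0.48); the cross is CUL4A.

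At the threshold of level, EFNB2 was the lowest gene taken, with a mean of 2.22 over the 6 libraries, and ZIC2 the highest left out, at 1.99. ZIC2, a zinc finger transcription factor gene, was at 1.84, 1.84 and 1.77 in NCCRP1 clones and 2.08, 2.30 and 2.08 in mock clones. Of the 8 genes under the level that were above 0 everywhere and not left out by name, 7 had a lower mean and 4 (ZIC2, GGACT, LIG4 and IRS2) did not overlap. Over all 12737 tested genes 53.3% had a lower mean and 7.05% were lower without overlap. CLYBL, a mitochondrial lyase gene, had a higher mean, with a difference of 0.24. SPRY2, a feedback inhibitor of receptor tyrosine kinase signalling, was at 0.79, 1.02 and 0.51 in NCCRP1 clones and 0.76, 0.63 and 1.24 in mock clones, with overlap. SLITRK5 and ABHD13 were above 0 in some libraries, and the other 36 genes with a row were listed at 0 in all 6.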

How the data were processed

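Total RNA depleted of ribosomal RNA of 6 KYSE150 clones was sequenced, 1 library a clone. The submitters' processing notes name hg19 and bedtools 2.25.0, without roles; the aligner is not given in the sources used here. The deposited column is headed RPKM per the file headers, but its values are log2 RPKM: 2 to the power of each value, times the longest transcript length in kilobases, summed to 1132550 to 1149540 per library. No value lies below 0, so RPKM under 1 stands as 0. Depth was estimated from whole-read steps of microRNA genes, searched between 8000000 and 20000000 reads; 23.4% to 33.1% of values under 8 steps lay within 0.005 of a whole step. Multiples of these depths remain possible, and reads per gene derived from them are estimates. Too few values were whole for a count model.

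The deposited log2 values of 12737 genes above 0 in at least 3 libraries were fitted with limma 3.58.1 in R 4.3.3. The fit was trended, robust, two-sided, with group as sole term, Benjamini-Hochberg and a threshold of 0.05, and was tested on simulated data. Its p-values set the group difference against the spread among clones within a group. With 1 library a clone, that spread also holds library and sequencing-run differences. Symbols and gene order came from RefSeq on GRCh38.p14 (37997 of 40448 IDs matched), so no hg19 coordinates are given. GC content came from the longest GENCODE v29 transcript (97.6% of tested genes), and its trend was a loess of span 0.5. The members, role lists and tests were chosen with earlier results of these data known. Named were the first and last gene, the 12 most negative and 5 highest differences, up to 4 genes per role list and the 2 neighbours of each end; genes outside this rule, such as COMMD6, MZT1, DIS3, GAS6 and ZIC2, were added after their values were seen. Some genes that the rule names are counted but not reported singly here.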

Additional observations from a re-analysis of the deposited data

How the results depend on the processing

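The median difference of the 45 genes stayed between -0.45 and -0.30 when each clone was left out in turn, and between -0.37 and -0.35 with log2(RPKM + 1), log2(RPKM + 0.1), equal library medians, quantile normalization or the GC trend removed. It was -0.45 with the run as a term, -0.32 within run 15 and -0.53 within run 14. Genes with a lower mean numbered 41 to 43, and genes lower without overlap 30 to 37, when a clone was left out. The 37 was reached without mock clone 1. Leaving out a clone cannot lower the number without overlap, so this range does not show that the number is stable. It rose to 32 once the GC trend was taken out. It fell to 29 when library medians were made equal, and also to 29 when values were quantile-normalized. With a level of at least 1 or at least 3 the medians were -0.36 and -0.37, and with CUL4A kept -0.36. Without COL4A1 and COL4A2, or without BIVM-ERCC5, both chosen after seeing the data, they were -0.37 and -0.37. Of 462 values of 33 named genes under these settings, 444 moved by less than 1 SD among the gene's own clones. The other 18 were within-run values. This limit is wide where clones differ much. TM9SF2, with an SD of 0.38 among mock clones, is within it although its difference went from -0.29 to -0.07 without mock clone 5. Limma called 13 genes in all, none of them among the 45 in any setting: 4 with log2(RPKM + 1), 1 with log2(RPKM + 0.1), 6 with quantile normalization, 4 with the GC trend removed, 2 with the run as a term, 3 with no filter, 7 among genes above 0 in all 6 libraries, 5 with robust=FALSE, and 1 to 28 when a clone was left out; the cause was not tested. Leaving out a clone moved this count by over 1.5 times in each case: 28, 5 and 1 without NCCRP1 clones 1, 6 and 17, and 4, 24 and 3 without mock clones 1, 4 and 5. The labels give no pairing between mock and NCCRP1 clones, so no paired analysis was made. The lowest estimated read count of a gene over the libraries, given for 44 of the 45, ran from 117 (TGDS) to 6746 (LAMP1).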

Other observations

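Of 425 noncoding genes and pseudogenes that RefSeq places between TBC1D4 and GRTP1, 191 had a row, 10 were above 0 in some library and 4 in all 6. The long noncoding RNA gene PRECSIT was lower in the NCCRP1 clones, where it had log2 RPKM values of 2.58, 2.47 and 2.37, than in the mock clones, at 2.85, 2.96 and 2.95, without overlap. OBI1-AS1 and UBAC2-AS1 had differences of -0.33 and -0.36 with overlap, and each is antisense to a gene of the stretch, whose reads cannot be told apart without strand. MIR17HG, the host of the miR-17 to miR-92 cluster, was at 0.22, 0.31 and 0.95 in NCCRP1 clones and at 0, 0 and 0.98 in mock clones.

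MIR622 was higher in the NCCRP1 clones. It was at 3.65, 4.03 and 4.31 in NCCRP1 clones 1, 6 and 17, and at 3.60, 3.06 and 2.81 in mock clones 1, 4 and 5, with every NCCRP1 clone above every mock clone and a difference of 0.84. The mature RNA, given by RefSeq on GRCh38.p14 (chr13:90231242-90231262, plus strand), is printed because its letters also occur elsewhere; capitals mark the seed, bases 2 to 8.
hsa-miR-622: aCAGUCUGcugagguuggagc
All 21 of its bases, with T for U, are found unbroken in the longest KRT18 transcript of GENCODE v29, and 91 of the 96 bases of the annotated precursor match that transcript without gaps. In RefSeq order MIR622 lies at the KRT18 pseudogene KRT18P27, which was listed at 0 in every library. KRT18, a keratin gene of simple epithelia on another chromosome, was at 8.02, 8.52 and 8.39 in NCCRP1 clones and 7.55, 7.81 and 7.53 in mock clones. Reads from these shared bases cannot be told apart, so the MIR622 value is uncertain; how such reads were assigned was not tested.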
